A study of Mus musculus with 9 samples.

Results

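Mutant and wild-type mouse myeloid cells were compared without any inhibitor, across all genes, in 6 of the 9 libraries of the series. The 3 mutant libraries came from Tet2-/-Flt3ITD mice, homozygous for loss of Tet2 and with a Flt3 internal tandem duplication whose zygosity the labels leave unsaid, and the 3 wild-type (WT) libraries from C57BL/6 mice. All samples are labelled with the C57BL/6 strain background. Lineage-positive cells were removed from hind-limb bone marrow, and the remaining progenitors were expanded for 5 days in interleukin 3, interleukin 6 and stem cell factor. Both groups received vehicle in a 24 h treatment, so the cytokines, the enrichment and the vehicle are shared, and the genotype is what the labels set apart. Each mutant culture came from its own mouse. The labels name no mice for the WT cultures, so p-values here measure spread between samples that may be technical. The labels give no ages. The 3 mutant libraries with SHP099, an inhibitor of the phosphatase SHP2, entered the statistical fit only to estimate the spread. They share mice with the vehicle cultures. Deviations from the group means correlated at 0.54, 0.6 and 0.56 where treated and vehicle libraries had the same number. Where the numbers differed they correlated at -0.36 to -0.23. Deviations cancel within each group of 3, so positive values for the same number force negative ones among the rest. That fit treats the treated and vehicle libraries as independent. Counts from the 6 vehicle libraries alone are given below for all genes and where they moved a list over 1.5-fold.

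Tet2 encodes an enzyme that oxidises 5-methylcytosine, the first step of active DNA demethylation, and its loss in blood stem cells is a common early event in myeloid disease. Flt3 encodes a receptor tyrosine kinase of early progenitors. The internal tandem duplication makes the receptor signal without its ligand, through STAT5, RAS-ERK and PI3K. In mouse bone marrow cultures with these cytokines, progenitors branch into neutrophil, monocyte, mast cell and basophil, megakaryocyte and some erythroid cells, each recognised by its own granule proteins, receptors and transcription factors.

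Tet2 (chr3:133463679-133545139 in GRCm38) served to check the genotype labels. Its level in CPM, counts scaled to library size, was 34.7, 31.8 and 33.1 CPM in the WT and 14.7, 14.9 and 17 CPM in the mutant libraries (log2 fold change -1.10 ± 0.09, SE; edgeR adjusted p = 0.00013). The groups did not overlap, and the mutant cells retained 0.467 of the WT level. Counts per gene do not show which exons are deleted. Flt3 (chr5:147330741-147400489) stood at 1.57, 1.69 and 2.5 CPM in the WT and 2.15, 2.91 and 1.5 CPM in the mutant libraries, with overlapping groups (log2 fold change 0.18 ± 0.29, SE; edgeR adjusted p = 0.67). The duplication cannot be seen in gene counts, and at this level Flt3 gives no check of the genotype. The labelled cells matched their description by markers: Mpo, the myeloperoxidase of granulocyte precursors, stood at 7437 ± 1467 CPM in WT against 8782 ± 2579 CPM in mutant cells (SD, n = 3 in each group here and below), and Kit, the stem cell factor receptor, at 160 ± 20.4 CPM in WT against 155 ± 13.5 CPM in mutant cells. Neither gene passed the test. Of 20 T, B and NK cell genes, 14 were too low to be tested, and all 20 summed to 12.3 to 13.2 CPM in WT against 12 to 14.8 CPM in mutant libraries.

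Total counts were 27242168 to 40681117 in WT and 30982845 to 41567622 in mutant libraries. The first principal component of the 6 libraries held 55.6% of the variance and separated the genotypes, and the second held 13.4% and set WT replicate 1 and mutant replicate 3 apart from the other libraries of their groups. All 6 libraries expressed the Y-linked gene Ddx3y at 36.7 to 53.3 CPM and Xist at no more than 0.108 CPM. Counts of the ribosomal precursor Rn45s took 0.377% to 0.705% of WT and 0.276% to 0.357% of mutant libraries (log2 fold change -0.75 ± 0.64, SE; edgeR adjusted p = 0.4). Their part in the differences below was not tested.

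The genotypes differed in 4199 of 13270 genes tested (31.6%; edgeR's quasi-likelihood test, Benjamini-Hochberg adjusted p under 0.05), 2248 higher in mutant cells (16.9%) and 1951 lower (14.7%). Decreases were larger than increases. The median log2 fold change was 0.25 among the genes that rose and -0.51 among those that fell, against 0.02 over all genes. Past a 2-fold change, 96 genes were higher (0.723%) and 455 lower (3.43%), and past 8-fold 6 were higher and 11 lower. Increases were more frequent among strongly expressed genes: of the 2654 genes with the highest levels 28.5% rose and 14.1% fell, while of the 2654 with the lowest 4.37% rose and 12% fell. The genes that rose took 22.7% to 23.7% of all counts in WT and 27.3% to 27.8% in mutant libraries, and the genes that fell took 18% to 18.8% and 13.3% to 13.8%. Replicates within a genotype varied little, with a median SD of 0.09 on the log2 scale in WT and 0.0901 in mutant cells. In 24.6% of genes every mutant library lay above every WT library and in 20.5% below. Whether more genes rose or fell changed with the scaling and with the libraries fitted. With median-ratio scaling 1908 genes were higher and 2098 lower, and with a fit of the 6 vehicle libraries alone 1432 were higher and 1976 lower. Without WT replicate 2 or mutant replicate 3, 1368 and 1351 genes were higher.

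**Figure D1:**
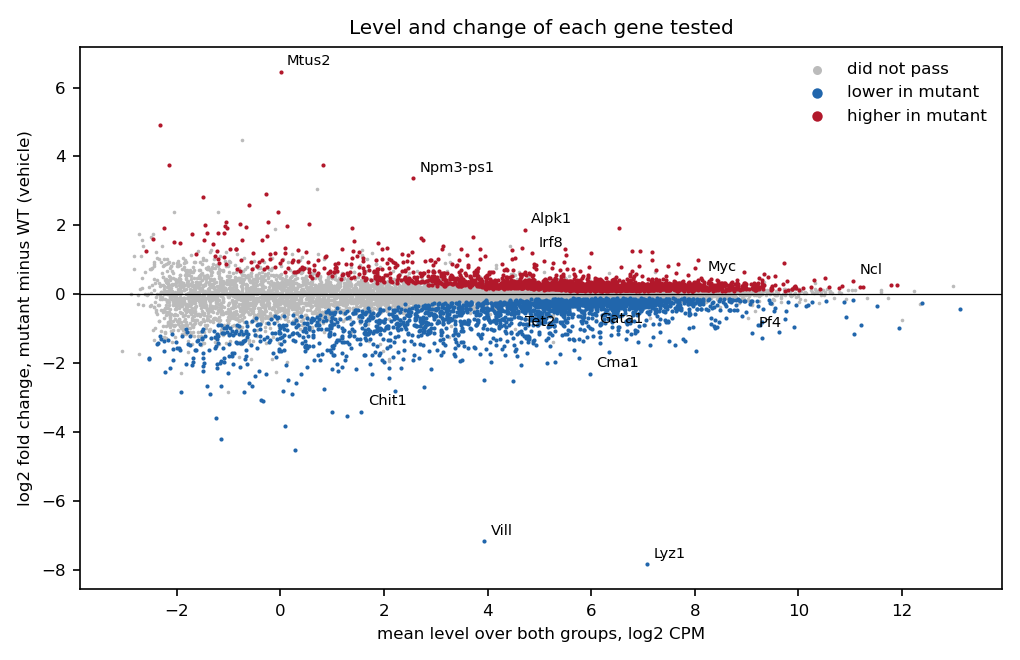
Change of each tested gene (y axis, log2 fold change of mutant over WT vehicle cells) against its mean level in both groups (x axis, log2 CPM), with genes that passed the test in colour and Gbp2b, which had no WT count, left out. Decreases reach farther from 0 than increases: 455 genes fell more than 2-fold and 96 rose more than 2-fold.

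Genes of megakaryocytes, the cells that shed platelets, were lower in the mutant cells almost without exception. Of 22 genes on the list, all tested, 20 fell and none rose, against 14.7% of all genes lower, with a median log2 fold change of -0.96 against 0.02 over all genes. The 2 that did not pass were Thbs1 (-0.10) and Selp (-0.19), which code for an adhesive protein of platelet granules and for P-selectin. The summed level was 8452 to 10212 CPM in WT against 5159 to 6155 CPM in mutant libraries. Gp9 (chr6:87778072-87779768), a chain of the platelet receptor for von Willebrand factor, stood at 89.1, 72.3 and 86.5 CPM in the WT and 25.1, 39.9 and 32.4 CPM in the mutant libraries (log2 fold change -1.35 ± 0.18, SE; edgeR adjusted p = 0.00095). No mutant library reached the lowest WT library. Its partner chains behaved alike, Gp1bb at -1.41 and Gp5 at -1.14 on the log2 scale. The fibrinogen receptor fell in both its chains, with Itga2b at 800 ± 125 CPM in WT against 431 ± 50.4 CPM in mutant cells (1.86-fold lower) and Itgb3 at 1079 ± 140 CPM in WT against 507 ± 93.4 CPM in mutant cells (2.13-fold lower). Lower levels were also found for the platelet chemokine Ppbp (-1.27), von Willebrand factor itself (Vwf, -0.93), the platelet tubulin Tubb1 (-1.50) and the receptor Clec1b (-1.62). All 20 decreases were called in each of the 6 fits without 1 library, and 20 were in the fit of the vehicle libraries alone. In bulk samples, fewer cells of a type and less RNA per cell cannot be told apart, here and for every cell type below.

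Erythroid genes fell further. Of 17 tested, 16 were lower, against 14.7% of all genes, with a median log2 fold change of -1.63. Epor (chr9:21958897-21963506), the erythropoietin receptor, was counted at 20.4, 24.2 and 32.3 CPM in the WT and 9.38, 13.6 and 7.6 CPM in the mutant libraries (log2 fold change -1.33 ± 0.23, SE; edgeR adjusted p = 0.0027). Klf1, the master regulator of erythroid genes, was counted at 23.8, 28.4 and 41.9 CPM in the WT and 8.94, 13.1 and 5.64 CPM in the mutant libraries (log2 fold change -1.76 ± 0.33, SE; edgeR adjusted p = 0.004). For both, the highest mutant value lay below the lowest WT value. The membrane skeleton genes Sptb and Ank1 fell by 1.32 and 1.80 on the log2 scale, the blood group protein gene Rhd by 2.16, Ermap by 1.97 and the carbonic anhydrase gene Car2 by 1.48. The gene that rose was Tfrc, the transferrin receptor, which takes up iron in all dividing cells (568 ± 17.9 CPM in WT against 659 ± 34.9 CPM in mutant cells; log2 fold change 0.21 ± 0.05, SE; edgeR adjusted p = 0.0092). Its call was lost without WT replicate 2 or mutant replicate 3 (edgeR adjusted p 0.0007 to 0.19 over the alternatives). It was also lost with a length and GC trend removed, and in the vehicle libraries alone with the replicate number as a block. The 6 hemoglobin genes on the list are recorded at 0 in every vehicle library. They are near-identical copies and the treatment of shared reads is not stated, so their 0 is not read as a level. The count of lower genes was 12 without WT replicate 3, mutant replicate 1 or mutant replicate 3, and 16 otherwise.

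Most of the transcription factors tested that are needed in these lineages, or act with those factors, were also lower. Of 13 GATA factors and partners tested, 9 fell and 1 rose, against 14.7% and 16.9% of all genes (median log2 fold change -0.25). Gata1 (chrX:7959260-7978071), needed for erythroid, megakaryocyte, mast and eosinophil cells, was at 76.8, 81.3 and 102 CPM in the WT and 40.9, 49.6 and 39.4 CPM in the mutant libraries, 0.5 of the WT mean (edgeR adjusted p = 0.0006). Its cofactor Zfpm1 changed by -1.05, the repressor Gfi1b by -0.91 and Gata2, the factor of stem cells and mast cells, by -0.61. The mutant libraries lay below all WT libraries for each of these 4 genes. Smaller decreases were called for Tal1 (-0.36) and Nfe2 (-0.25), which act with or below GATA factors, while Lmo2 (0.03), Lyl1 (0.03) and Fli1 (-0.10) did not pass. Cbfa2t3, a corepressor, was the gene that rose (0.20), a call lost without WT replicate 1 or 2 or mutant replicate 1 or 2 (edgeR adjusted p 0.017 to 0.12 over the alternatives). That call was also lost in the fit of the vehicle libraries alone.

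Promoter sequence was set beside these lists because their members moved together. In the 300 bases around the RefSeq start (250 before and 50 after), the GATA motif AGATAA was searched on both strands. It was found in 6.61% of the 10072 tested genes with a promoter, in 5.93% of those that rose and in 8.44% of those that fell. Among list members with a promoter it was found in 5 of 17 megakaryocyte genes, 4 of 11 erythroid genes and 7 of 22 mast cell and basophil genes. A match describes letters and shows no binding. The promoter with the smallest p in each list and a match before the start is printed below over the 250 bases before it, 5′ to 3′ on the gene's strand, with the match in capitals (TTATCT is the same motif on the other strand). Positions are GRCm38.p6, with F2rl2 at chr13:95696670-95696919, plus strand, Il1rl1 at chr1:40429320-40429569, plus strand and Epor at chr9:21963577-21963826, minus strand. The match starts 95, 217 and 54 bases before the listed start.
F2rl2: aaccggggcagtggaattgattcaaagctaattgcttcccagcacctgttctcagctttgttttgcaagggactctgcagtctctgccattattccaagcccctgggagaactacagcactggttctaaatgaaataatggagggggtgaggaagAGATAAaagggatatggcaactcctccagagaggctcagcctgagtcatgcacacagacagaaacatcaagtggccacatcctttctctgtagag
Il1rl1: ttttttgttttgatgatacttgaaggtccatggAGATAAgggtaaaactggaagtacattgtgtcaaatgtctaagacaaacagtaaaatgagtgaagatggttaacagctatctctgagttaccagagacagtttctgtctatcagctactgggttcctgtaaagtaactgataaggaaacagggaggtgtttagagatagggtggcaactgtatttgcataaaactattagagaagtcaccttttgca
Epor: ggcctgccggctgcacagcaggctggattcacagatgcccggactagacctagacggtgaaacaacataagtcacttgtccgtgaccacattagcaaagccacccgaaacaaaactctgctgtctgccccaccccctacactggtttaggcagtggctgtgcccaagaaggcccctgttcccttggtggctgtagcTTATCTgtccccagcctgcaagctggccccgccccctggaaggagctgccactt
F2rl2, the gene of a thrombin receptor of platelets, stood at 111 ± 9.68 CPM in WT against 57.5 ± 11 CPM in mutant cells (log2 fold change -0.94 ± 0.13, SE; edgeR adjusted p = 0.0011). Il1rl1, the interleukin 33 receptor of mast cells and basophils, stood at 225 ± 25.2 CPM in WT against 130 ± 15.5 CPM in mutant cells (log2 fold change -0.79 ± 0.10, SE; edgeR adjusted p = 0.00062).

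Mast cell and basophil genes were lower. Of 26 tested, 20 fell and none rose, against 14.7% and 16.9% of all genes (median log2 fold change -0.85). The summed level was 3596 to 4184 CPM in WT against 1951 to 2527 CPM in mutant libraries. The proteases of mast cell granules changed most. Cma1 (chr14:55941451-55944675), a chymase, was counted at 115, 96.4 and 102 CPM in the WT and 27.4, 17.6 and 18.8 CPM in the mutant libraries (log2 fold change -2.30 ± 0.21, SE; edgeR adjusted p = 0.00022), so that the highest mutant library had less than the lowest WT library. Granzyme B (Gzmb, -1.47), the tryptases Tpsb2 (-1.69) and Tpsab1 (-2.57) and the chymase Mcpt2 (-1.48) also fell. These protease genes have close copies, and the labels do not say how reads shared between copies were counted. Hdc, which makes histamine, fell by 0.79 and carboxypeptidase Cpa3 by 0.90. Among the defining genes, these did not pass: Kit (-0.05), and Fcer1a, the α chain of the IgE receptor (log2 fold change -0.49 ± 0.19, SE; edgeR adjusted p = 0.077).

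Of 9 eosinophil genes tested, 3 fell and 1 rose, against 14.7% and 16.9% of all genes. Prg2 (chr2:84980461-84983632), the major basic protein of eosinophil granules, stood at 305, 350 and 310 CPM in the WT and 113, 136 and 129 CPM in the mutant libraries (log2 fold change -1.35 ± 0.10, SE; edgeR adjusted p = 7.8e-05), again without overlap. The related Prg3 changed by -1.09 and the eosinophil peroxidase Epx by -1.08. Siglecf, a sialic acid receptor on the eosinophil surface, went the other way (13 ± 1.99 CPM in WT against 20.4 ± 2.69 CPM in mutant cells; log2 fold change 0.64 ± 0.15, SE; edgeR adjusted p = 0.01). Il5ra, the interleukin 5 receptor chain, was near 1 CPM in both groups (-0.13, not passing).

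Of 15 neutrophil genes of primary granules, the first to form, 2 rose and none fell, against 16.9% and 14.7% of all genes (median 0.14). Those 2 were Ctsc (188 ± 23.6 CPM in WT against 322 ± 65.7 CPM in mutant cells; log2 fold change 0.78 ± 0.17, SE; edgeR adjusted p = 0.0072), the protease that activates granule enzymes, and Plac8 (0.43). Mpo (0.24) and neutrophil elastase (Elane, 0.14) did not pass. Of 18 genes of the later secondary and tertiary granules and S100 proteins, 13 fell and 1 rose (median -0.58), and the summed level was 28310 to 37572 CPM in WT against 20959 to 21787 CPM in mutant libraries. Lactoferrin (Ltf, chr9:111019271-111042767) stood at 3532, 2973 and 2749 CPM in the WT and 2030, 1567 and 1419 CPM in the mutant libraries (log2 fold change -0.88 ± 0.19, SE; edgeR adjusted p = 0.0066). The mutant libraries all had less than the lowest WT library. Gelatinase B (Mmp9) changed by -1.85, the neutrophilic granule protein Ngp by -0.96, lipocalin 2 (Lcn2) by -0.95, the surface antigen Cd177 by -1.64 and Cebpe, the factor that switches on secondary granule genes, by -0.42. Chil3, a chitinase-like protein, was at 4371, 2302 and 2228 CPM in the WT and 1289, 1130 and 1553 CPM in the mutant libraries (log2 fold change -1.16 ± 0.25, SE; edgeR adjusted p = 0.0067); WT replicate 1 stood well above the other WT libraries. Camp (-0.69) and S100a8 (-0.28) did not pass, and S100a9 (-0.43) lost its call without WT replicate 1, mutant replicate 2 or mutant replicate 3 (edgeR adjusted p 0.0002 to 0.061 over the alternatives). The exception was Mmp8, the neutrophil collagenase, which reached 354 ± 95.9 CPM from 177 ± 29.1 CPM (log2 SE 0.22; edgeR adjusted p = 0.0083).

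Among 18 tested receptors and surface genes of late neutrophils, 2 rose and 4 fell, against 16.9% and 14.7% of all genes (median -0.18). The membrane protease Mmp25 fell by 2.80 and the protease inhibitor Slpi by 0.86, while the lectin Clec4d rose (0.65). Csf3r, the receptor for the neutrophil growth factor G-CSF, was at 192 ± 31.5 CPM in WT against 176 ± 16.9 CPM in mutant cells and did not pass.

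**Figure D2:**
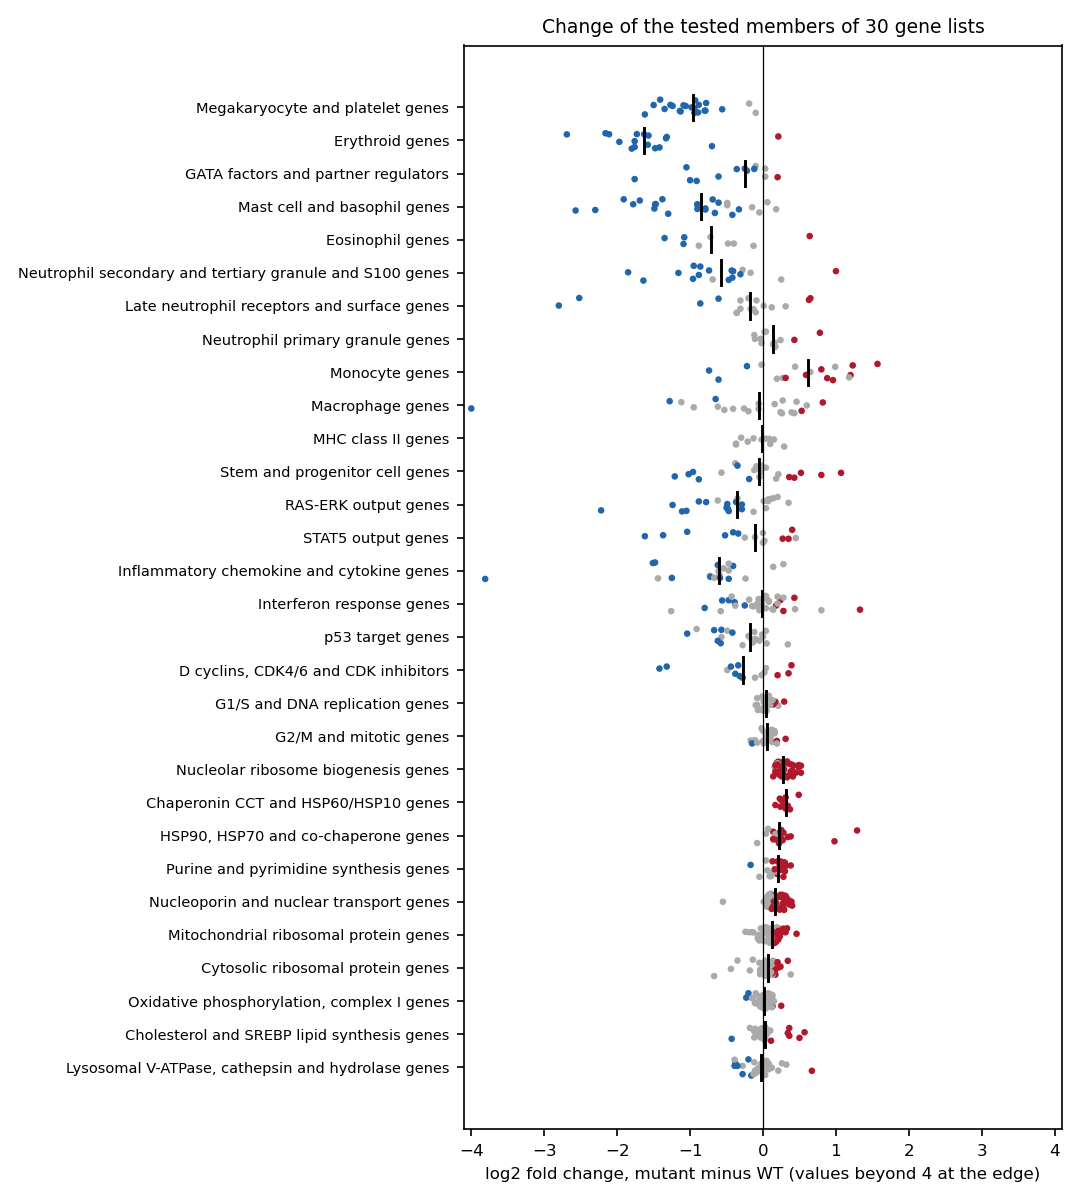
Log2 fold change of the tested members of 30 gene lists (x axis, mutant over WT vehicle cells), one list a row, with members that rose in red, members that fell in blue, others in grey and the list's median as a black bar. The megakaryocyte median lies at -0.96 and the nucleolar median at 0.27.

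More monocyte genes rose than fell in mutant cells. Of 18 tested, 8 rose and 3 fell, against 16.9% and 14.7% of all genes (median 0.62). The summed levels were 1742 to 2138 CPM in WT against 2274 to 2889 CPM in mutant libraries. Irf8 (chr8:120736358-120756694), the factor that directs progenitors to monocytes, stood at 16.9, 16.5 and 19.2 CPM in the WT and 32.2, 49.8 and 39.2 CPM in the mutant libraries (log2 fold change 1.20 ± 0.15, SE; edgeR adjusted p = 0.00062). Each mutant library was above each WT library. The cell surface protein gene Emb rose by 0.59, Tifab by 0.31 and Ly86, a partner of a toll-like receptor homologue, by 1.57 from a very low level. Vcan, which codes for the matrix proteoglycan versican, was at 108, 79.1 and 72.9 CPM in the WT and 131, 218 and 260 CPM in the mutant libraries (log2 fold change 1.23 ± 0.30, SE; edgeR adjusted p = 0.013), and without WT replicate 2 or 3 or mutant replicate 3 its call was lost (edgeR adjusted p 0.0036 to 0.054 over the alternatives). Csf1r, the receptor of macrophage colony-stimulating factor, was at 69.6 ± 11.8 CPM in WT against 121 ± 32.2 CPM in mutant cells (log2 fold change 0.80 ± 0.22, SE; edgeR adjusted p = 0.02), with the call lost without WT replicate 2 or 3 or mutant replicate 2 or 3 (edgeR adjusted p 0.0099 to 0.076 over the alternatives). Ifi30, a thiol reductase of antigen processing, fell (-0.22). Ly6c2, the surface marker of inflammatory monocytes, did not differ beyond its spread (766 ± 84.9 CPM in WT against 754 ± 59.2 CPM in mutant cells; log2 fold change -0.02 ± 0.09, SE; edgeR adjusted p = 0.88). The count that rose ranged from 4 (without WT replicate 3 or mutant replicate 3) and 5 (without WT replicate 2) to 11 (without mutant replicate 1), so it rests on single libraries, and the count that fell was 1 or 2 in these fits.

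Of 22 macrophage genes tested, 2 rose and 3 fell (0 to 5 rose and 1 to 3 fell in the fits without 1 library, with a count moved over 1.5-fold without WT replicate 1, 2 or 3 or mutant replicate 2 or 3; 1 to 2 rose and 2 to 4 fell with another scaling, filter, tool or library set). These counts lie near or below the shares of all genes. The largest difference on the list was in a lysozyme gene: Lyz1 (chr10:117287797-117292868) stood at 258, 203 and 346 CPM in the WT and 1.49, 1.26 and 0.821 CPM in the mutant libraries (log2 fold change -7.83 ± 0.27, SE; edgeR adjusted p = 5.9e-07), 227-fold lower. Lyz1, like Vill, Gbp2b and Mtus2 below, was nearly absent from 1 genotype. Both groups are labelled C57BL/6, and whether the mice differ in sequence at these 4 genes cannot be seen in gene counts. Its neighbour Lyz2 (chr10:117277331-117282321), a near-identical copy with which it can share reads, stood at 2727, 2210 and 2147 CPM in the WT and 1151, 1888 and 1489 CPM in the mutant libraries (log2 fold change -0.65 ± 0.17, SE; edgeR adjusted p = 0.017) and lost its call without WT replicate 1 (edgeR adjusted p 0.0049 to 0.063 over the alternatives). Class II antigen-presentation genes showed no calls, with none of 11 passing by edgeR or DESeq2 (2 at an unadjusted edgeR p under 0.05) and summed levels of 215 to 272 CPM in WT against 137 to 327 CPM in mutant libraries. Among 10 dendritic cell genes tested, Clec10a (-1.16) and Clec9a (-1.43), both lectins, fell, and the factor Tcf4 rose (0.42). The collagen genes Col1a1 and Col1a2, which mark stromal cells, were at 9.26 and 6.98 CPM in WT and 2.76 and 1.99 CPM in mutant cells, and both lost their calls without WT replicate 1 or mutant replicate 3. The 12 stromal and endothelial genes of the list, 6 of them tested, summed to 19.6 to 43.8 CPM in WT against 14.4 to 24.1 CPM in mutant libraries. Their part in the other differences was not tested.

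Genes of stem and progenitor cells went in both directions, with 5 of 23 higher and 6 lower, against 16.9% and 14.7% of all genes (median -0.05). Cd34 (chr1:194938819-194961279), the sialomucin of early progenitors, stood at 39.2, 49.4 and 48.1 CPM in the WT and 81.8, 76.5 and 79.1 CPM in the mutant libraries (log2 fold change 0.80 ± 0.09, SE; edgeR adjusted p = 0.00042), without overlap. Cd48 (0.43), Cd93 (0.36) and the factor gene Sox4 (0.52) rose as well. Slamf1, which codes for the stem cell marker CD150 and is also present on megakaryocyte progenitors, stood at 37.9, 33.5 and 38.2 CPM in the WT and 12.9, 18.5 and 16 CPM in the mutant libraries (log2 fold change -1.21 ± 0.19, SE; edgeR adjusted p = 0.0019). Esam, an adhesion protein of stem cells and megakaryocytes, fell (-1.02). No gene of the HOXA and MEIS list rose, and 3 of 12 fell, with Pbx2 at -0.20. Among myeloid transcription factors, 4 of 23 rose and 6 fell, the first a share close to that of all genes (2 to 4 rose and 4 to 6 fell in the fits without 1 library, with a count moved over 1.5-fold without WT replicate 3). Cebpa (271 ± 22.3 CPM in WT against 283 ± 32.2 CPM in mutant cells) and Spi1 (330 ± 35 CPM in WT against 309 ± 9.83 CPM in mutant cells), the factors needed for granulocyte and macrophage fate, did not pass, whereas Klf2 fell by 0.77 and Runx2 rose by 0.30.

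**Figure D3:**
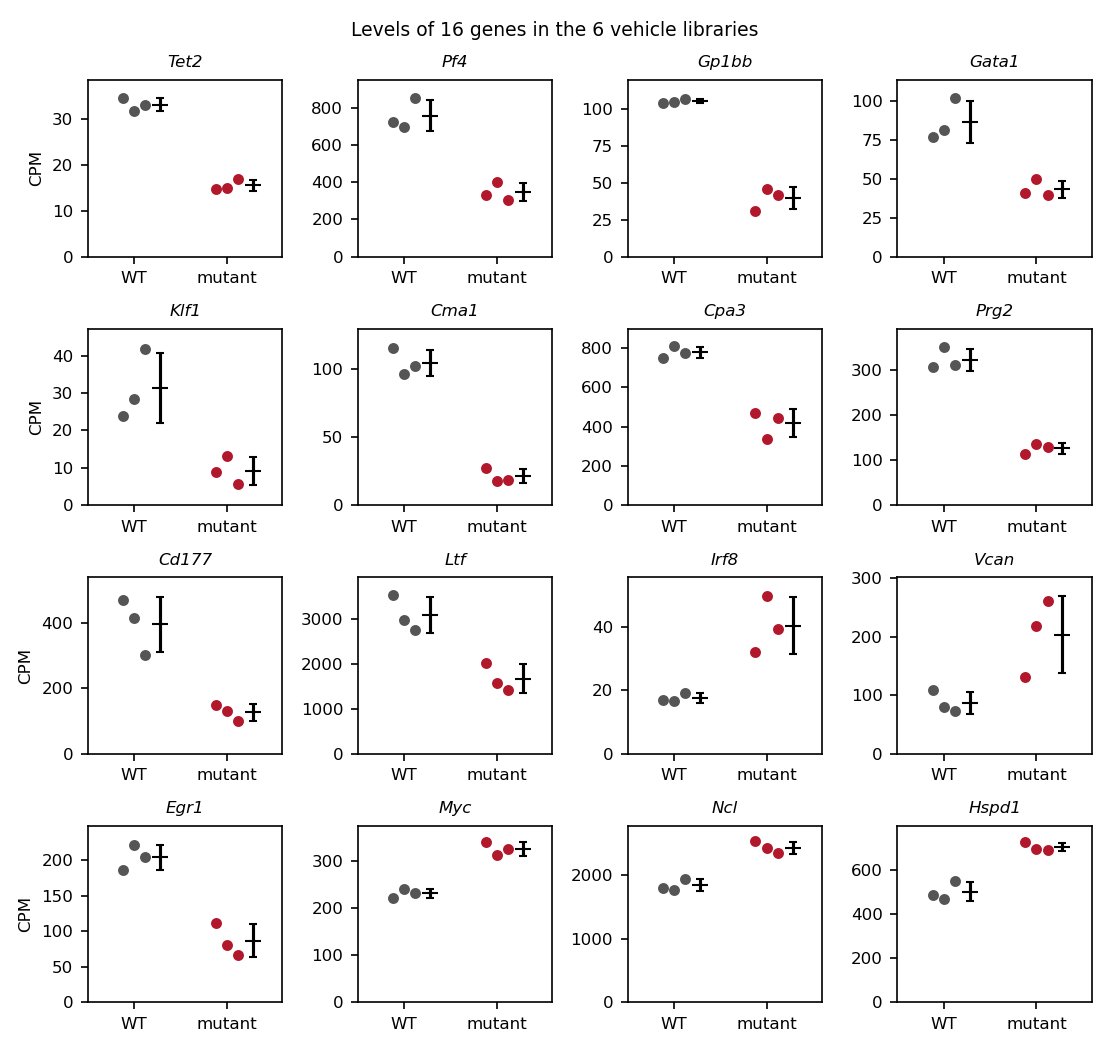
CPM of 16 genes in each of the 3 WT (grey) and 3 mutant (red) vehicle libraries, with the mean and SD beside the points and each y axis starting at 0. In the panels of Tet2, Pf4, Gp1bb, Gata1, Klf1, Cma1, Cpa3, Prg2, Cd177, Ltf and Egr1 the mutant libraries lie below all WT libraries, and in those of Irf8, Vcan, Myc, Ncl and Hspd1 above them.

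Of 26 cytokine and growth factor receptors tested, 6 rose and 4 fell, near the 16.9% and 14.7% of all genes (2 to 7 rose and 4 to 5 fell in the fits without 1 library, with a count moved over 1.5-fold without WT replicate 2 or 3 or mutant replicate 2 or 3). The receptors for stem cell factor and interleukin 3 in the medium showed no call, with Kit (-0.05) for the first and Il3ra (-0.18) and Csf2rb (0.09) for the second. Both chains of the interleukin 6 receptor were higher in the main test, Il6ra at 33 ± 4.47 CPM in WT against 46.1 ± 8.17 CPM in mutant cells and Il6st at 37.5 ± 7.43 CPM in WT against 62.7 ± 15.4 CPM in mutant cells (log2 fold changes 0.48 and 0.74), and both calls were lost without WT replicate 2 or 3 or mutant replicate 2 or 3. The α chain of the GM-CSF receptor was lower, Csf2ra (chr19:61223957-61228429 in GRCm38) being counted at 172, 158 and 146 CPM in the WT and 77, 87.9 and 85.4 CPM in the mutant libraries (log2 fold change -0.93 ± 0.07, SE; edgeR adjusted p = 8.5e-05). No mutant value reached a WT value.

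Output genes of RAS-ERK signalling were lower in mutant cells: 13 of 24 fell and none rose (median -0.36), with a summed level of 924 to 1030 CPM in WT against 644 to 711 CPM in mutant libraries. Egr1 (chr18:34859823-34864984), an immediate early factor, stood at 186, 222 and 205 CPM in the WT and 112, 81.5 and 66.5 CPM in the mutant libraries (log2 fold change -1.24 ± 0.29, SE; edgeR adjusted p = 0.01), without overlap. The other called genes included Phlda1 (-1.11), Jun (-0.49), and the ERK and MAP kinase phosphatases Dusp4 (-0.78), Dusp5 (-0.50) and Dusp6 (-0.29). Ccnd1 (0.04), Etv5 (0.14) and the inhibitors Spry2 (0.07) and Spred1 (0.10) did not pass. Within the pathway itself 1 of 35 components rose and 8 fell, against 16.9% and 14.7% of all genes (0 to 2 rose and 5 to 8 fell in the fits without 1 library, with a count moved over 1.5-fold without WT replicate 1; 0 to 2 rose and 8 to 9 fell with another scaling, filter, tool or library set). Those that fell included the RAS GTPase-activating protein gene Rasa3 (306 ± 19.5 CPM in WT against 207 ± 20.2 CPM in mutant cells; log2 fold change -0.56 ± 0.08, SE; edgeR adjusted p = 0.00096), the RAS exchange factor genes Rasgrp2 (-0.27) and Rasgrp4 (-0.26) and the RAS GTPase-activating gene Rasal3 (-0.28).

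Of 11 JAK and STAT genes, Jak2 fell (-0.24), and Stat5a rose by 0.14 with a call that every fit without 1 library lost (edgeR adjusted p 0.012 to 0.16 over the alternatives). The Stat5a call was also lost with median-ratio scaling, DESeq2, the vehicle libraries alone, the replicate number as a block and a filter of at least 1 CPM in 3 libraries. On that list, 0 to 1 rose and 1 to 3 fell in the fits without 1 library, with a count moved over 1.5-fold without WT replicate 3; 0 to 1 rose and 1 to 2 fell with another scaling, filter, tool or library set. The STAT5 output genes were mixed, 3 of 15 higher and 6 lower, against 16.9% and 14.7% of all genes. Oncostatin M (Osm, chr11:4236420-4241026), a cytokine of the interleukin 6 family, stood at 147, 152 and 165 CPM in the WT and 69.7, 74.1 and 81.3 CPM in the mutant libraries (log2 fold change -1.04 ± 0.06, SE; edgeR adjusted p = 3.3e-05), and its relative Lif changed by -1.37. The survival gene Bcl2l1 (-0.41), the kinase gene Pim2 (-0.34) and the feedback inhibitor Socs1 (-0.52) fell, while cyclin D2 (Ccnd2, 0.35) and Socs2 (0.40) rose. Cish (log2 fold change -0.00) and Pim1 (0.02), also STAT5 targets, did not pass. The PI3K and mTOR list held 4 increases and 3 decreases among 22 genes, close to the shares of all genes (2 to 4 rose and 1 to 4 fell in the fits without 1 library, with a count moved over 1.5-fold without WT replicate 1 or 2 or mutant replicate 3; 2 to 4 rose and 3 to 5 fell with another scaling, filter, tool or library set), with Mtor at 0.19 and the catalytic subunit Pik3cb at -0.28.

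The rise in growth genes was small per gene and broad. Of 48 nucleolar genes of ribosome assembly, 45 rose and none fell (36 rose with the vehicle libraries alone), against 16.9% of all genes higher, with a median log2 fold change of 0.27 and summed levels of 8072 to 8879 CPM in WT against 10477 to 10811 CPM in mutant libraries. Nucleolin (Ncl, chr1:86344719-86359400) stood at 1797, 1768 and 1942 CPM in the WT and 2523, 2413 and 2337 CPM in the mutant libraries (log2 fold change 0.40 ± 0.05, SE; edgeR adjusted p = 0.00096). Heatr1 (0.52), Utp20 (0.49), Npm1 (0.49), Gnl3 (0.45), Nop58 (0.41) and Nolc1 (0.40), which process or assemble ribosomal RNA, rose by similar amounts. For Ncl and in 44 of the 48 genes, all mutant libraries lay above all WT libraries, against 24.6% of all genes. Myc (chr15:61985391-61990374), a factor known to drive such genes, stood at 222, 241 and 231 CPM in the WT and 340, 311 and 325 CPM in the mutant libraries (log2 fold change 0.49 ± 0.05, SE; edgeR adjusted p = 0.00023). Its antagonists Mxd1 (-0.50) and Mxd4 (-0.52) fell, and Mga (0.35) and Mlxip (0.19) rose, while Max, the common partner, did not pass (-0.08).

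The E-box CACGTG, the site that MYC and its relatives recognise, was found in 10.1% of tested promoters over the same 300 bases, in 13% of those of genes that rose, in 9.18% of those of genes that fell and in 9 of 42 nucleolar, 1 of 9 chaperonin, 1 of 17 heat shock and 4 of 24 nucleotide synthesis promoters. The ETS motif CCGGAAG was in 18% of all tested promoters, 21.1% of genes that rose, 12.1% of genes that fell and 14 of 42 nucleolar promoters. Of the nucleolar matches to the E-box, 2 lie wholly before the start. These were Nop2, an rRNA methyltransferase (0.27), and Imp4, a small-subunit processing factor (0.18). Their 250 bases before the RefSeq start in GRCm38.p6 (Nop2 at chr6:125131633-125131882, plus strand, and Imp4 at chr1:34439579-34439828, plus strand) are printed 5′ to 3′ with the motif in capitals, 60 and 121 bases before the start.
Nop2: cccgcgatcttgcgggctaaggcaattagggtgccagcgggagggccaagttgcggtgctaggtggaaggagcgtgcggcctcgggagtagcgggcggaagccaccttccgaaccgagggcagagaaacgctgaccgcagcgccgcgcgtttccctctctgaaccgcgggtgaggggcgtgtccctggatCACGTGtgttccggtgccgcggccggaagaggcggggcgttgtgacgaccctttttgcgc
Imp4: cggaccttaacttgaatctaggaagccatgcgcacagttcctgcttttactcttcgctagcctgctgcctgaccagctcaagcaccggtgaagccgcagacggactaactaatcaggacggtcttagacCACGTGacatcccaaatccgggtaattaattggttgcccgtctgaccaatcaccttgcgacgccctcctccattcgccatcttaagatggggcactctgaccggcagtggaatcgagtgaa

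Genes of protein folding and nucleotide supply rose as nucleolar genes did, against 16.9% of all genes higher and 14.7% lower. All 10 subunits of the chaperonins CCT and HSP60 with HSP10 rose (median 0.31), led by Hspd1 (chr1:55077835-55088243) at 486, 467 and 548 CPM in the WT and 725, 693 and 690 CPM in the mutant libraries (log2 fold change 0.49 ± 0.06, SE; edgeR adjusted p = 0.00066). Every mutant library was above every WT library. Cct7 lost its call without WT replicate 2 or mutant replicate 2 (edgeR adjusted p 0.0012 to 0.13 over the alternatives). Among heat shock proteins and co-chaperones 17 of 22 rose and none fell (median 0.22), a count of 11 without WT replicate 2 and with the vehicle libraries alone. Hspa9, of mitochondria, rose by 0.34, and the cytosolic Hsp90aa1 and Hsp90ab1 by 0.38 and 0.28. Of 27 purine and pyrimidine synthesis genes 18 rose and 1 fell. The count that rose was 14 with the vehicle libraries alone and 14 to 18 in the fits without 1 library. Gmps (0.38), Paics (0.26), Ctps (0.28) and Cad (0.30), which code for enzymes of these pathways, were among those that rose. Tk1, a salvage kinase of S phase, was the one that fell (-0.17), a call lost without WT replicate 1, mutant replicate 1 or mutant replicate 3 (edgeR adjusted p 0.014 to 0.13 over the alternatives).

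Nuclear transport genes rose in 32 of 45 cases, with none lower (median 0.17), for example the export receptor Cse1l (0.36), the importin Ipo7 (0.39) and the pore subunit Nup160 (0.31). RNA polymerase subunits rose in 13 of 27, with Polr1a, the large subunit of polymerase I, at 0.39, and the count was 7 without WT replicate 2 or with the vehicle libraries alone and 8 without mutant replicate 2 or 3. Splicing genes rose in 19 of 41 (11 without WT replicate 1, 7 without WT replicate 2, 8 with the vehicle libraries alone and 10 with the length and GC trend removed), and aminoacyl-tRNA synthetases in 8 of 20, with none lower in either list. Mitochondrial ribosomal proteins rose in 28 of 76 (15 without WT replicate 2 or mutant replicate 3 or with the vehicle libraries alone, 13 without mutant replicate 2), with Mrpl1 at 0.46. Of 79 cytosolic ribosomal protein genes 11 rose and none fell (median 0.07; 2 to 14 rose and 0 fell in the fits without 1 library, with a count moved over 1.5-fold without WT replicate 1 or 2 or mutant replicate 2 or 3; 3 to 20 rose and 0 fell with another scaling, filter, tool or library set). Since the count ran from 2 to 20, it gives no order against the 16.9% of all genes. Oxidative phosphorylation showed 3 increases and 2 decreases among 35 complex I genes (1 to 3 rose and 2 to 3 fell in the fits without 1 library, with a count moved over 1.5-fold without WT replicate 2 or mutant replicate 2 or 3; 1 to 3 rose and 1 to 3 fell with another scaling, filter, tool or library set). Among 39 genes of the other complexes 3 rose and 1 fell (0 to 7 rose and 0 to 3 fell in the fits without 1 library, with a count moved over 1.5-fold without WT replicate 3 or mutant replicate 1, 2 or 3; 0 to 8 rose and 0 to 2 fell with another scaling, filter, tool or library set), counts too unsteady to set against those of all genes.

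In the main test few genes of the replicating cell passed, against 16.9% and 14.7% of all genes. Of 30 genes of G1/S and DNA replication 3 rose and none fell (median 0.04; 1 to 3 rose and 0 fell in the fits without 1 library, with a count moved over 1.5-fold without WT replicate 2 or mutant replicate 1 or 3; 1 to 3 rose and 0 to 1 fell with another scaling, filter, tool or library set). Of 25 mitotic genes 2 rose and 1 fell (median 0.06; 1 to 5 rose and 0 to 3 fell in the fits without 1 library, with a count moved over 1.5-fold without WT replicate 1, 2 or 3 or mutant replicate 3; 1 to 3 rose and 0 to 3 fell with another scaling, filter, tool or library set). Mki67, which marks dividing cells, stood at 1083 ± 46.2 CPM in WT against 1118 ± 73.3 CPM in mutant cells (log2 fold change 0.05 ± 0.06, SE; edgeR adjusted p = 0.58). The regulators of G1 differed: Cdk6 (58 ± 0.993 CPM in WT against 75.7 ± 1.73 CPM in mutant cells; log2 fold change 0.39 ± 0.05, SE; edgeR adjusted p = 0.00063), Cdk4 (0.20) and Ccnd2 (0.35) rose, while cyclin D3 (Ccnd3, -0.34), the retinoblastoma gene Rb1 (-0.44) and the CDK inhibitors Cdkn2d (-0.38) and Cdkn2b (-1.42) fell. In all, 3 of 16 such genes rose and 7 fell, the first a share close to the 16.9% of all genes. Of 22 p53 targets 7 fell and none rose (median -0.18), among them Trp53inp1 (-0.67), Phlda3 (-1.04), Btg2 (-0.62), Zmat3 (-0.58) and Bbc3 (-0.57), which codes for the pro-death protein PUMA. Cdkn1a, the p53 target that halts the cycle, did not pass (-0.28). In the BCL2 family, Bcl2l1 and Bbc3 fell, and Mcl1 was level (-0.00, not passing).

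Among 17 genes that write, read or erase DNA methylation, 3 rose and 2 fell, Tet2 included, close to the 16.9% and 14.7% of all genes. Tet1 (-0.05) and Tet3 (0.02), which code for the related dioxygenases, did not pass, nor did the methyltransferase genes Dnmt1 (0.13) and Dnmt3a (-0.12). Dnmt3b, a de novo methyltransferase, rose (22.7 ± 2.08 CPM in WT against 29.9 ± 2.16 CPM in mutant cells; log2 fold change 0.40 ± 0.09, SE; edgeR adjusted p = 0.0072), as did Idh2 (0.33), whose enzyme makes the cosubstrate of TET proteins in mitochondria. Mbd2, a reader of methylated DNA, fell (-0.26). Of 33 histone methylation enzymes 7 rose and 2 fell, against the same shares of all genes (2 to 5 rose and 2 fell in the fits without 1 library, with a count moved over 1.5-fold without WT replicate 2 or 3 or mutant replicate 1, 2 or 3; 2 to 6 rose and 2 to 3 fell with another scaling, filter, tool or library set). The 2 that fell, Ezh1 (-0.24), a Polycomb methyltransferase, and Kdm6b (-0.22), which removes the Polycomb mark, kept their calls in all of these.

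Interferon-responsive genes as a group showed no common direction, 5 of 36 higher and 5 lower, near the 16.9% and 14.7% of all genes, with a median of -0.02 (1 to 5 rose and 2 to 5 fell in the fits without 1 library, with a count moved over 1.5-fold without WT replicate 1, 2 or 3 or mutant replicate 1, 2 or 3; 3 to 6 rose and 4 to 5 fell with another scaling, filter, tool or library set). The immunoproteasome subunit Psmb8 rose (0.43), and the GTPase Igtp fell (54.7 ± 7.54 CPM in WT against 31.4 ± 3.35 CPM in mutant cells; log2 fold change -0.80 ± 0.14, SE; edgeR adjusted p = 0.0026). The guanylate-binding proteins, GTPases that attack the vacuoles of microbes, were higher in 4 of 8 and lower in none. Gbp7 (chr3:142530342-142550149) stood at 30.9, 32.3 and 32.1 CPM in the WT and 47.4, 56.5 and 52.1 CPM in the mutant libraries (log2 fold change 0.71 ± 0.06, SE; edgeR adjusted p = 0.00019), with no overlap. Gbp7 lies within 10 Mb of Tet2, and the part of position in the differences of this family was not tested. Gbp2b had no count in any WT library and 44 to 107 counts in the mutant libraries, or 1.39, 2.38 and 2.93 CPM. Against a floor of 3 counts per WT library (0.0721 to 0.108 CPM) the mutant mean was at least 20.7-fold higher. Gbp2, its closest relative, did not pass (4.87 ± 0.82 CPM in WT against 4.61 ± 0.944 CPM in mutant cells; log2 fold change -0.08 ± 0.22, SE; edgeR adjusted p = 0.81). The Schlafen genes divided, with Slfn4 at 6.83, 9.13 and 5.5 CPM in the WT and 1.64, 1.17 and 1.23 CPM in the mutant libraries (log2 fold change -2.41 ± 0.36, SE; edgeR adjusted p = 0.0014) and Slfn9 higher (0.72). Members of both families are similar in sequence, so reads may be split between them.

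Inflammatory chemokines and cytokines were lower in 9 of 20 tested and higher in none, against 14.7% and 16.9% of all genes (median -0.60). All 23 genes of the list summed to 1532 to 1747 CPM in WT against 917 to 1174 CPM in mutant libraries. Ccl3 (chr11:83647844-83649355), a chemokine of myeloid cells, stood at 50.3, 46.3 and 54.9 CPM in the WT and 17.8, 21.4 and 24.5 CPM in the mutant libraries (log2 fold change -1.25 ± 0.13, SE; edgeR adjusted p = 0.0003), and Ccl4 (-1.48), Ccl6 (-0.72), Ccl9 (-0.41) and Ccl8 (-3.81, from 1.98 CPM) also fell. All mutant libraries were below all WT libraries for Ccl3. NF-κB genes changed in 3 of 14, 1 higher and 2 lower (0 to 3 rose and 0 to 3 fell in the fits without 1 library, with a count moved over 1.5-fold without WT replicate 2 or 3 or mutant replicate 1 or 3; 1 to 2 rose and 1 to 4 fell with another scaling, filter, tool or library set), and toll-like receptor genes in 3 of 19 (0 to 6 rose and 0 to 1 fell in the fits without 1 library, with a count moved over 1.5-fold without WT replicate 1, 2 or 3 or mutant replicate 1 or 3; 1 to 3 rose and 1 fell with another scaling, filter, tool or library set). Neither count stood steadily above or below the 31.6% of all genes.

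The megakaryocyte chains Itga2b and Itgb3 fell, as given above, with Itga6 (-0.95) and the collagen receptor chain Itga2 (-1.16), while Itga1, the α chain of another collagen receptor, stood at 16.5, 13.4 and 12.8 CPM in the WT and 27.9, 42.3 and 39.6 CPM in the mutant libraries (log2 fold change 1.36 ± 0.17, SE; edgeR adjusted p = 0.00075), every mutant library being higher. In all, 2 of 18 integrin genes rose and 6 fell, against 16.9% and 14.7% of all genes (1 to 2 rose and 5 to 8 fell in the fits without 1 library, with a count moved over 1.5-fold without WT replicate 2 or 3 or mutant replicate 2 or 3; 1 to 3 rose and 6 to 8 fell with another scaling, filter, tool or library set). Glucose handling shifted between isoforms: the transporter Slc2a3, abundant in platelets, fell by 0.98, hexokinases Hk1 (-0.23) and Hk3 (-0.44) fell, and Hk2 (0.30), Pfkl (0.33) and the lactate transporter Slc16a1 (0.44) rose. The list as a whole had 6 increases and 3 decreases among 19 genes, against 16.9% and 14.7% of all genes (3 to 8 rose and 3 to 4 fell in the fits without 1 library, with a count moved over 1.5-fold without WT replicate 2 or 3 or mutant replicate 2 or 3; 3 to 7 rose and 3 to 4 fell with another scaling, filter, tool or library set). In lipid synthesis the fatty acid enzymes Fasn (502 ± 23.8 CPM in WT against 634 ± 34.4 CPM in mutant cells; log2 fold change 0.34 ± 0.06, SE; edgeR adjusted p = 0.0031), Acaca (0.36), Scd2 (0.50) and Elovl6 (0.57) rose. Elovl6 lies within 5 Mb of Tet2. The sterol synthesis gene Fdps fell (-0.43). Of the 26 cholesterol and lipid synthesis genes 6 rose and 1 fell, against 16.9% and 14.7% of all genes. In the fits without 1 library 4 to 5 rose and 1 to 4 fell. With the vehicle libraries alone 5 rose and 2 fell. The count that fell was 4 with median-ratio scaling and 5 with at least 1 CPM in 3 libraries. Of 33 lysosome genes 1 rose and 6 fell, against 16.9% and 14.7% of all genes (0 to 2 rose and 2 to 9 fell in the fits without 1 library, with a count moved over 1.5-fold without WT replicate 1 or mutant replicate 1; 1 to 2 rose and 6 to 9 fell with another scaling, filter, tool or library set), with cathepsin D (Ctsd) at -0.35 and β-galactosidase (Glb1) at -0.39.

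Some of the largest differences lay outside these lists. Among genes that reached 5 CPM in either group mean and whose groups did not overlap, predicted gene models and clones left out, Npm3-ps1 (chr6:85076192-85076719), named as a pseudogene of the nucleolar chaperone gene Npm3, rose most, with 0.971, 1.11 and 1.03 CPM in the WT and 12.6, 12.5 and 7.11 CPM in the mutant libraries (log2 fold change 3.37 ± 0.31, SE; edgeR adjusted p = 0.00023). It can share reads with its parent gene, so its counts are uncertain. Alpk1 (chr3:127670310-127780527), a kinase that senses a bacterial sugar, stood at 12.1, 10.4 and 11.1 CPM in the WT and 41.3, 41.7 and 41.1 CPM in the mutant libraries (log2 fold change 1.88 ± 0.06, SE; edgeR adjusted p = 5.9e-07). P2ry13, an ADP receptor, rose by 1.67, the inflammasome sensor gene Nlrp1a by 1.64, Adgrl4 by 1.58 and the leukotriene receptor gene Cysltr1 by 1.33. On the other side Vill (chr9:119052778-119071525), a villin-like actin-binding protein, stood at 33, 20.2 and 37.6 CPM in the WT and 0.442, 0.143 and 0.0821 CPM in the mutant libraries (log2 fold change -7.15 ± 0.38, SE; edgeR adjusted p = 1.6e-05). The mutant libraries held almost none of it. Chit1, a chitinase, fell by 3.40, Adgrl2 by 2.48 and the sphingosine kinase gene Sphk1 by 2.12. Retnlg, a resistin-like protein of neutrophils, differed more between libraries of a group (27.7, 45.5 and 41.6 CPM in the WT and 13.5, 4.01 and 2.82 CPM in the mutant libraries) and lost its call without WT replicate 2 or mutant replicate 2 or 3 (edgeR adjusted p 0.0066 to 0.068 over the alternatives).

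Genes near the altered loci were counted separately, since the labels do not say how the alleles were made. Within 5 Mb of Tet2, 10 of 38 tested genes other than Tet2 rose and 3 fell (34.2%), and within 5 Mb of Flt3 12 of 77 rose and 11 fell (29.9%), against 31.6% of all genes. The count near Tet2 was 7, 6, 7 and 5 without WT replicate 1, WT replicate 2, mutant replicate 2 and mutant replicate 3, and that near Flt3 was 15 without WT replicate 1. In wider windows, 20 of 58 genes within 10 Mb of Tet2 rose and 3 fell (39.7%), and within 20 Mb 40% of 120 changed. Past 2-fold, both directions together, were 8.62% and 9.17%. These were 4 higher and 1 lower of 58, and 5 higher and 6 lower of 120. Over all genes 0.723% were higher and 3.43% lower past 2-fold. Alpk1 and Gbp7, given above, lie within 10 Mb of Tet2. Near Flt3, 28.5% of 144 genes changed within 10 Mb and 29.1% of 223 within 20 Mb. The cause of these shares was not tested. Past 2-fold, the 5 Mb window of Tet2 held Mttp (1.16), a lipid transfer protein gene 4.54 Mb away, and Ddit4l (-1.41), whose call was lost without WT replicate 3 or any 1 mutant library. Mtus2, 0.557 Mb from Flt3, stood at 0.0286, 0 and 0.024 CPM in the WT and 2.34, 0.668 and 2.95 CPM in the mutant libraries. That is 2 counts against 210, a ratio of 99.5 (95% interval 27.2 to 827, counting error only; edgeR adjusted p = 0.0031).

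**Figure D4:**
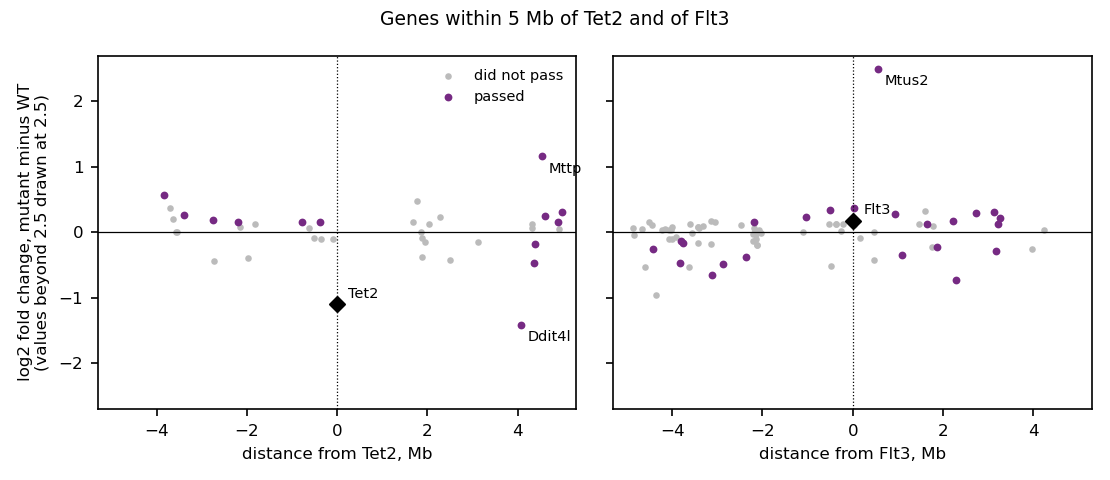
Log2 fold change of tested genes (y axis, mutant over WT vehicle cells) against distance in Mb (x axis) from Tet2 (left) and Flt3 (right), with genes that passed the test in purple and the altered gene as a diamond. The genes past 2-fold are Mttp and Ddit4l near Tet2 and Mtus2 near Flt3, which is drawn at the edge.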

How the data were processed

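RNA was extracted from the cultures and libraries were made with a TruSeq stranded mRNA kit, per the labels' protocols. The deposited table holds whole-number read counts per gene, which the authors made with tools that the submitters' processing notes give as FastQC, STAR, featureCounts and Subread on mm10, without versions. The annotation release, the strand setting and the treatment of reads shared between genes are not stated, so overlapping and near-identical genes are uncertain.

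Groups came from the labels. Genes were tested with edgeR 4.0.16 (R 4.3.3; quasi-likelihood test, TMM scaling, 2-sided, Benjamini-Hochberg adjustment over 13270 of 24421 genes kept by filterByExpr at a minimum count of 10) in 1 fit of all 9 libraries, so that the groups share the spread, with the SHP099 libraries counted as independent although they share mice with the vehicle ones (biological coefficient of variation 9.04%), with the threshold at 0.05. Standard errors of log2 fold changes were derived from the F statistic. CPM values divide each count by its library size after TMM scaling, and means are given with their SD. Replicate counts differed beyond sampling noise in both groups (chi-square per degree of freedom 11.1 to 25.8). The script was tested on simulated data.

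The comparison and the 63 gene lists were chosen with earlier results of these data known. Genes were named by rule: Tet2, Flt3, Ptpn11 and Kit; the 12 largest increases and decreases reaching 5 CPM without overlap, predicted gene models and clones left out; of each list up to 5 members with the smallest p, up to 3 called against the trend, and all members of lists under 12; the 10 called genes of highest level; genes past 2-fold within 5 Mb of Tet2 or Flt3; and genes with no count in 1 group and at least 1 CPM in each library of the other. Not all are printed, and some results are not reported here. Ank1, Cad, Camp, Car2, Cdkn2b, Cebpa, Clec1b, Csf1r, Csf2rb, Csf3r, Dusp6, Egr1, Elane, F2rl2, Gnl3, Gp5, Hdc, Il3ra, Il6ra, Il6st, Imp4, Ly6c2, Mcpt2, Mki67, Mmp9, Mpo, Ncl, Nfe2, Nop2, Nop58, Npm1, Ppbp, Sox4, Spi1, Tal1, Tpsb2, Tubb1, Vcan and Vwf were named after their values were seen, as were the genes said not to pass. Positions are GENCODE M21 on GRCm38 (mm10), and promoters RefSeq, GRCm38.p6, first listed start per gene. Alternatives were median-ratio (RLE) scaling, DESeq2 1.42.0, other low-count filters, the 6 vehicle libraries alone, the replicate number as a block, removal of a length and GC trend, and leaving out each library; the block in the 6 vehicle libraries alone was added after seeing the data.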

Additional observations from a re-analysis of the deposited data

How the results depend on the processing

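No named gene that passed changed sign under any alternative, and the genes called in common with each alternative had the same sign in all of them. The balance of higher and lower genes did turn, from 2248 and 1951 to 1908 and 2098 with RLE scaling, 1940 and 2101 with DESeq2, 1904 and 2032 with the length and GC trend removed, and 1432 and 1976 with the 6 vehicle libraries alone. With at least 1 CPM in 3 libraries, 60 genes were more than 2-fold higher and 8 within 5 Mb of Tet2 changed, and with the 6 vehicle libraries alone 8 did. In the fits without 1 library, 1351 to 1979 genes were higher, 209 to 333 list members were higher, and 5 to 10 genes near Tet2 and 15 to 20 near Flt3 changed.

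The counts of 7 of the 63 lists moved over 1.5-fold with RLE scaling, 8 with DESeq2, 18 with the 6 vehicle libraries alone, 14 with the length and GC trend removed, 4 without a low-count filter, 8 with at least 1 CPM in 3 libraries and 4 with the replicate block. In the vehicle libraries alone with the block 37 did. The balance turned in small lists too: PI3K and mTOR genes went from 4 higher and 3 lower to 2 and 4 without WT replicate 2, and oxidative phosphorylation complexes II to V from 3 and 1 to 0 and 3 without mutant replicate 2.

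The replicate numbers do not pair the WT with the mutant vehicle cultures: deviations of libraries with the same number correlated at -0.07, -0.11 and -0.13, and those with other numbers at -0.05 to 0.16. With the replicate block in all 9 libraries 4161 genes changed, 3869 of them among the 4199 called without it. In the 6 vehicle libraries alone with the block, 2072 changed and 732 were higher, 61 of them more than 2-fold, with 132 list members higher and 6 genes near Tet2 and 12 near Flt3 changed. The cause of these differences was not tested. Of the 2654 genes with the lowest levels (0.12 to 2.69 CPM), 116 rose and 318 fell, of which 58 and 220 changed more than 2-fold. Small changes among the genes with the fewest counts may have been missed at this depth.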

Other observations

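Gene groups that the comparison above does not take up moved in both directions. Of 38 canonical histone genes tested in these poly(A)-selected libraries, 2 fell and none rose, against 14.7% and 16.9% of all genes: the linker histone gene Hist1h1c (47.9 ± 1.99 CPM in WT against 25.3 ± 1.37 CPM in mutant cells; log2 fold change -0.92 ± 0.09, SE; edgeR adjusted p = 0.00025) and Hist1h2bc (-0.92), both with polyadenylated transcripts. Of 38 proteasome subunits 16 rose and 1 fell (8 to 21 rose and 0 to 1 fell in the fits without 1 library, with a count moved over 1.5-fold without WT replicate 2 or mutant replicate 2 or 3; 8 to 19 rose and 0 to 1 fell with another scaling, filter, tool or library set), against 16.9% of all genes higher, with Psmd14 at 0.25 and Psmd12 at 0.21. Among long non-coding RNAs 7 of 16 rose and 1 fell (3 to 7 rose and 0 to 1 fell in the fits without 1 library, with a count moved over 1.5-fold without WT replicate 1 or 2 or mutant replicate 2; 4 to 8 rose and 1 fell with another scaling, filter, tool or library set). Snhg1, which hosts small nucleolar RNAs in its introns, stood at 56.4, 56.5 and 67.1 CPM in the WT and 76.4, 83.7 and 78 CPM in the mutant libraries (log2 fold change 0.40 ± 0.07, SE; edgeR adjusted p = 0.0031), every mutant library being higher, and Firre, a nuclear RNA from the X chromosome, rose by 0.35.

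Of 21 targets of the amino acid stress factor ATF4, 5 rose and 3 fell, against 16.9% and 14.7% of all genes (4 to 7 rose and 1 to 2 fell in the fits without 1 library, with a count moved over 1.5-fold without mutant replicate 1 or 3; 5 to 6 rose and 1 to 3 fell with another scaling, filter, tool or library set). The serine synthesis genes Phgdh (166 ± 5.05 CPM in WT against 193 ± 3.42 CPM in mutant cells; log2 fold change 0.21 ± 0.04, SE; edgeR adjusted p = 0.0022) and Psat1 (0.26), the serine-to-glycine enzyme gene Shmt2 (0.20) and the arginine transporter gene Slc7a1 (0.28) were among those that rose. Slc7a1 lies within 5 Mb of Flt3. In polyamine metabolism 3 of 11 rose and 1 fell, against the same 16.9% and 14.7%. The spermidine synthase gene Srm rose by 0.30, and the spermine oxidase gene Smox stood at 38.7, 41 and 51.9 CPM in the WT and 19.9, 30.7 and 24.3 CPM in the mutant libraries (log2 fold change -0.81 ± 0.17, SE; edgeR adjusted p = 0.007), with all mutant libraries below all WT libraries. In the pentose phosphate pathway 1 of 7 genes fell and none rose, against 14.7% and 16.9% of all genes (0 rose and 1 to 2 fell in the fits without 1 library, with a count moved over 1.5-fold without WT replicate 1; 0 rose and 1 to 2 fell with another scaling, filter, tool or library set). The gene that fell was the transaldolase gene Taldo1 (-0.33).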
